A study of Mus musculus with 6 samples.

Results

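CTCF binding in the Hox clusters of mouse embryonic stem cells (mESCs) was described from chromatin immunoprecipitation followed by sequencing (ChIP-seq). The members were the CTCF regions that touch the body of any of 38 Hox genes or lie within 20000 bp of it. They were found by position alone, and they numbered 30 of the 57662 regions in the series. The Hoxa cluster held 9 of them, the Hoxb cluster 7, the Hoxc cluster 5 and the Hoxd cluster 9. All cells descended from CTCF-mAID mESCs, whose own CTCF carries a degron tag and was degraded with auxin. WT_CTCF cells then relied on an introduced wild-type CTCF. MUT_CTCF cells relied on an introduced CTCF in which a threonine that can carry the sugar O-GlcNAc was replaced by alanine, and which the study calls O-GlcNAc-deficient. There were 2 ChIP libraries per genotype, described by the study as biological replicates, and 2 input libraries that were not analysed here. The cells came from picked clones expressing the introduced protein, so genotype and clone cannot be told apart in these libraries. The files hold no expression values, so the identity of the cells was not checked against marker genes.

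Hox genes encode homeodomain transcription factors that give cells their position along the body axis. They lie in clusters, all members of a cluster are transcribed in the same direction, and members at the same place in different clusters are paralogues that share a group number. Low-numbered groups at the 3′ end are used early and towards the head, and high-numbered groups at the 5′ end are used late and towards the tail. In mESCs most of them are silenced by Polycomb proteins. CTCF uses its zinc fingers to bind a long, directional DNA motif. It stops cohesin as this ring-shaped complex extrudes chromatin loops, so the direction in which a motif points matters, and CTCF sites inside Hox clusters are known as borders between active and silent chromatin.

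The best match to a CTCF weight matrix was read from the mm9 reference for each region (20 bases, 5′ to 3′ along the motif; the capitals mark the 12 bases aligned to the core CCANNAGNNGGC). The first set is shown because each cluster has a region after its group 9 gene, and those regions can be compared between clusters. In order the matches lie at chr6:52171804-52171823 (minus strand), chr11:96140258-96140277 (plus), chr15:102818020-102818039 (plus) and chr2:74540448-74540467 (plus). The Hoxa region differs from the others in that it spans the start of Hoxa7, and its match lies inside that gene.
Hoxa region 5, between Hoxa9 and Hoxa7: aattCCAGGAGATGGCagtg
Hoxb region 4, between Hoxb9 and Hoxb8: gtggCCGCTAGATGGCatcc
Hoxc region 3, between Hoxc9 and Hoxc8: gtgaACGCGAGGTGGCgctg
Hoxd region 8, between Hoxd9 and Hoxd8: ttggCCACTAGAGAGCgctg

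The second set is shown because the start of each group 5 gene in 3 clusters lies at or next to a region. The matches lie at chr6:52154654-52154673 (minus strand), chr11:96164555-96164574 (plus) and chr15:102844129-102844148 (plus).
Hoxa region 7, at Hoxa5: gtctCCAGCGGGTGGCgctc
Hoxb region 6, at Hoxb5: atcgCCGGGAGGTGGCgcgc
Hoxc region 5, at Hoxc5: gtcgGCACCAGGTGTCgctg

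The third set is shown because these matches, at the 5′ ends of the clusters, point against Hox transcription, unlike those above. They lie at chr6:52207116-52207135 (plus strand), chr11:96123063-96123082 (minus), chr2:74493580-74493599 (minus) and chr2:74500054-74500073 (minus).
Hoxa region 3, just past Hoxa13: gtcaACACGAGGTGGCgccc
Hoxb region 3, upstream of Hoxb9: ccgaCCTCTAGGCGGCgccc
Hoxd region 1, in an Evx2 exon: gctgCCGCTAGGGGGCgccc
Hoxd region 2, between Evx2 and Hoxd13: gaaaACAGATGGGGGCgcca

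Regions are numbered within each cluster from the 5′ end, in the direction of transcription. Of the 30 regions, 15 touched the body of a listed Hox gene, 9 touched a Hox exon and 12 touched the 3000 bp before a Hox transcription start (GENCODE vM1 annotation of mm9). By all annotated genes, 12 regions touched an exon, 7 lay in introns and 11 were intergenic. The gaps between neighbouring regions of a cluster ranged from 1270 to 57167 bp, with a median of 9275 bp over 26 gaps. The shortest gap was in Hoxd, between regions 2 and 3, and the longest was in Hoxb, across the stretch between Hoxb13 and Hoxb9. The member farthest from a Hox gene lay 18449 bp away (Hoxa region 1), and the nearest region left out lay 26105 bp away, beside Hoxb.

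A region lay in the body of 12 of the 38 genes and within 20000 bp of 34. The other 4 genes, Hoxa2, Hoxb1, Hoxb2 and Hoxd1, sit at the 3′ ends of their clusters and had none in that distance. Hoxb was empty beyond its region 7, so the start of Hoxb1 lay 54058 bp and that of Hoxb2 39938 bp from the centre of the nearest member. At the other extreme, 7 regions lay within 20000 bp of Hoxd11 and of Hoxd12, genes that pattern limbs and the tail end of the body.

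**Figure D1:**
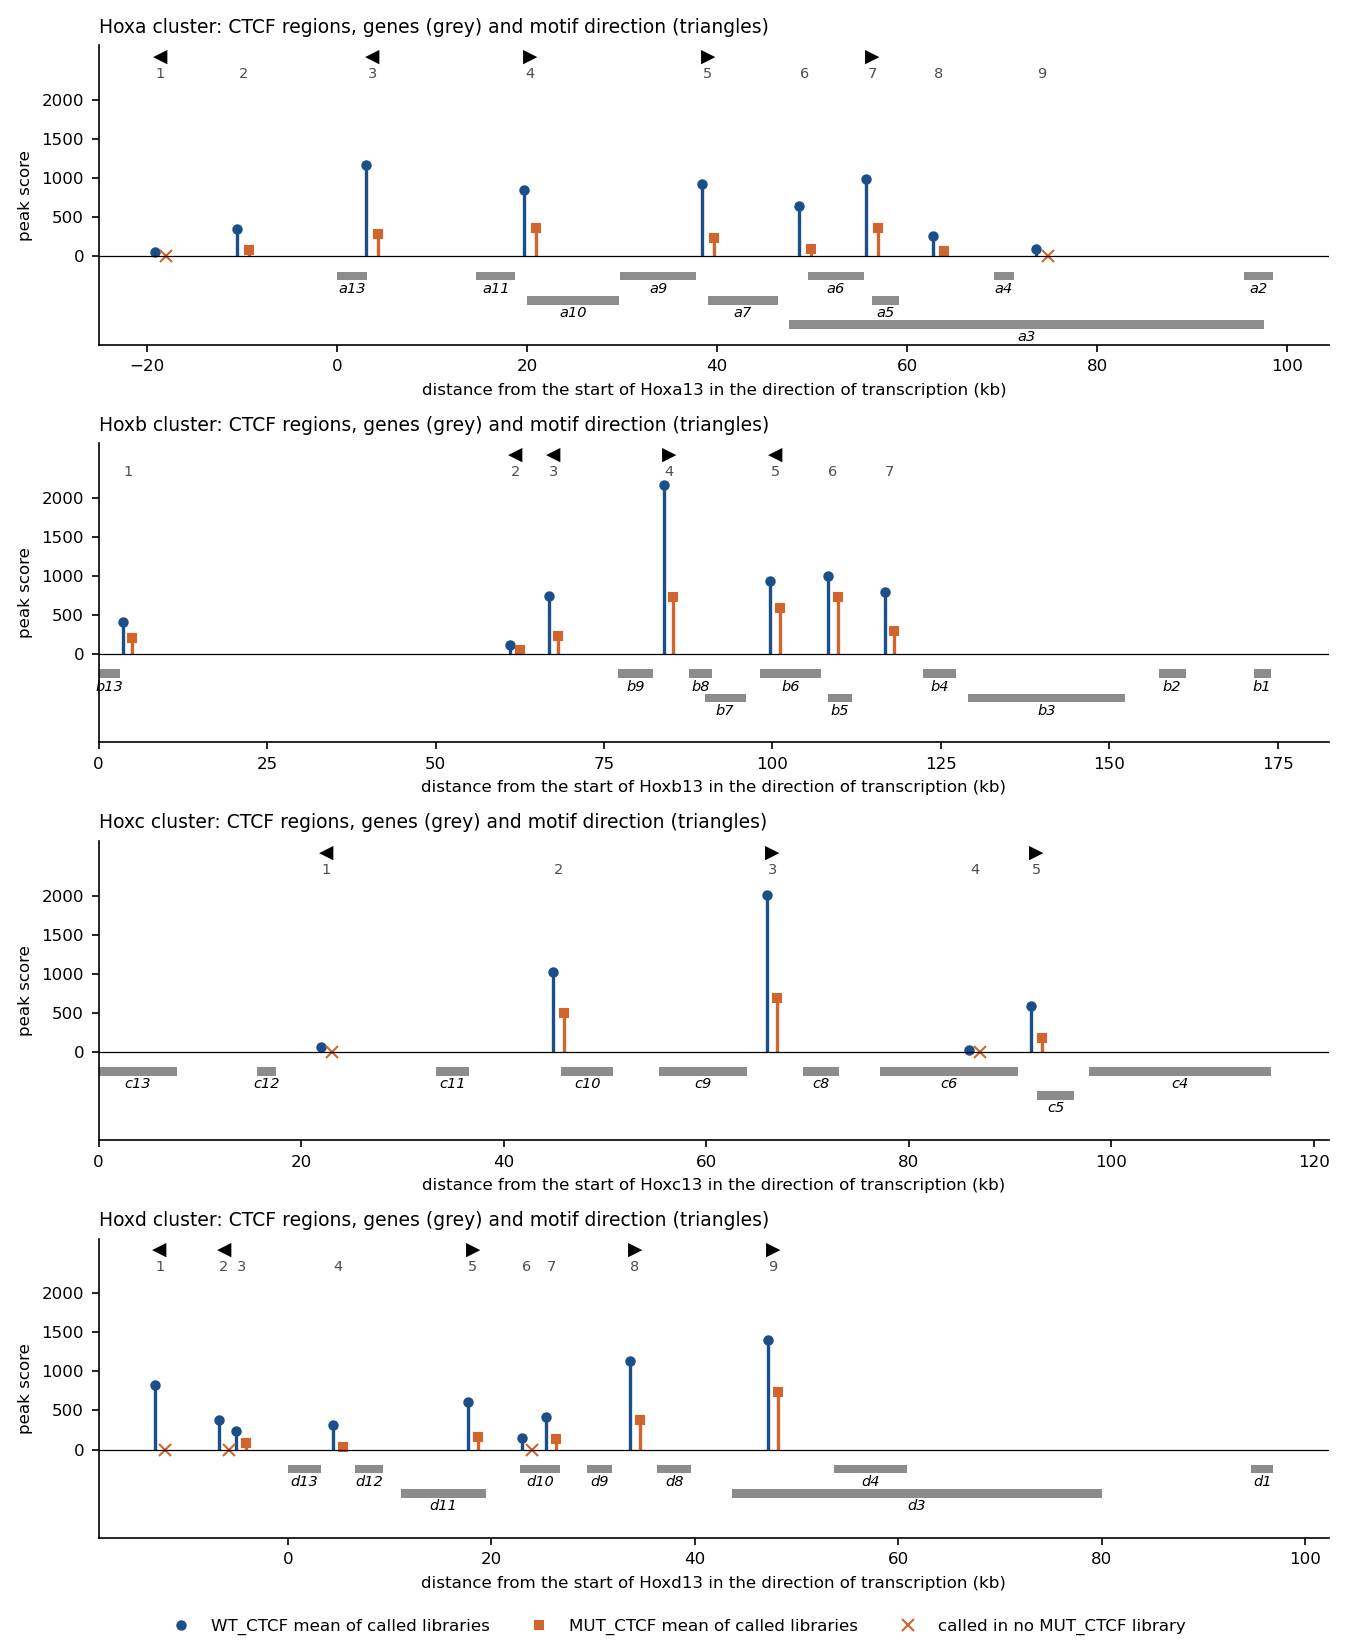
Peak scores along each Hox cluster, against the distance in kb from the start of the group 13 gene. Stems give the mean score of the libraries in which a region was called (circles WT_CTCF, squares MUT_CTCF), crosses mark regions called in no MUT_CTCF library, grey bars are genes, and triangles show the direction of motif matches above the score reached by 5% of control intervals. Hoxb region 4 and Hoxc region 3 carry the highest WT_CTCF means, 2164 and 2010, and the 3′ ends of Hoxb and Hoxd hold no region.

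The first comparison asked in which libraries each Hox region was called. Calls were fewer in MUT_CTCF: 30 and 26 of the 30 regions had a peak in WT_CTCF replicates 1 and 2, and 22 and 21 had one in MUT_CTCF replicates 1 and 2. The mean was 28 ± 2.83 regions (SD, n = 2) in WT_CTCF and 21.5 ± 0.707 in MUT_CTCF, a difference of -6.5. This difference was -12.5 where peak and region had to overlap reciprocally by 50%, -11 for scores of at least 250, and -12 and -4 for members within 50000 and 5000 bp. The genotypes did not overlap, yet the permutation test (exact, two-sided, 2 against 2 libraries) gave p = 0.333, the smallest p this design allows. Over all regions of the series 86.3% and 93.4% were called in WT_CTCF replicates 1 and 2 and 58.3% and 56.2% in MUT_CTCF replicates 1 and 2.

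By calling library, 20 of the 30 Hox regions were called in all 4 libraries, 66.7% beside 52.6% of all regions. There were 3 called in both WT_CTCF and in neither MUT_CTCF library, 10% beside 19.5% of all regions, and all 3 lay in the Hoxd cluster. None was called in both MUT_CTCF and in neither WT_CTCF library, beside 0.033% of all regions. A further 3 regions were called in 3 libraries (Hoxa regions 6 and 8 and Hoxd region 4). Mixes of calls other than the above and a single WT_CTCF library, which these 3 make up here, held 5239 of all 57662 regions. The last 4 were called in WT_CTCF replicate 1 alone, at scores of 28 to 90, beside 3447 of all 57662 regions. No Hox region was called in WT_CTCF replicate 2 alone, beside 7374 of all regions. Hoxb was the cluster with every region, 7 of 7, called in all 4 libraries. Leaving out WT_CTCF replicate 2 raised the count of regions seen in WT_CTCF alone from 3 to 7, and leaving out MUT_CTCF replicate 1 raised it to 5.

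The second comparison was of peak strength. The score is what the peak caller attached to each peak, on a scale the sources used here do not define. It is not a read count, so a lower score was not read as less CTCF on the DNA. From spike-in normalized read counts the study reports the other direction, increased global chromatin binding of CTCF in MUT_CTCF. It also reports immunoblots with more chromatin-bound CTCF, higher accessibility at the enhanced peaks, and like results in additional clones. In every one of the 20 regions called in all 4 libraries both MUT_CTCF scores lay below both WT_CTCF scores. This held in 96.2% of all regions so called. On percentile ranks within the library, 2 of the 20 were higher in MUT_CTCF. After division by the library's median over the regions called in all 4 libraries (the shared-region scale), 6 of the 20 were higher. Over all regions so called, the median log2 ratio of MUT_CTCF to WT_CTCF was -0.36 on percentile ranks and 0.04 on the shared-region scale. Division by the median score of all peaks in the library was chosen after seeing the data. On that scale all 20 stayed lower, and the median of all regions was -0.95. The share of all regions higher in MUT_CTCF on these scales was not counted. On the scores as given, the median log2 ratio of the MUT_CTCF to the WT_CTCF mean was -1.52 over the 20 Hox regions. The range was from -2.17 to -0.46. Over all 30317 regions called in all 4 libraries the median was -1.18, with quartiles of -1.51 and -0.88. Of the 20 Hox regions 14 lay below the median of all regions and 6 above it. The sets also differed in score. Median scores of the 20 Hox regions were 840 and 882 in WT_CTCF and 302.5 and 275 in MUT_CTCF. Those of all regions so called were 569 and 620 in WT_CTCF and 263 and 250 in MUT_CTCF. The part of the WT_CTCF score in the ratios was not tested. For single regions the exact two-sided permutation test cannot go below p = 0.333, which all 20 reached. Within a genotype, scores of these 20 regions differed between replicates by at most 1.72-fold in WT_CTCF and 1.59-fold in MUT_CTCF, and the narrowest step from the lower WT_CTCF to the higher MUT_CTCF score was 1.18-fold.

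**Figure D2:**
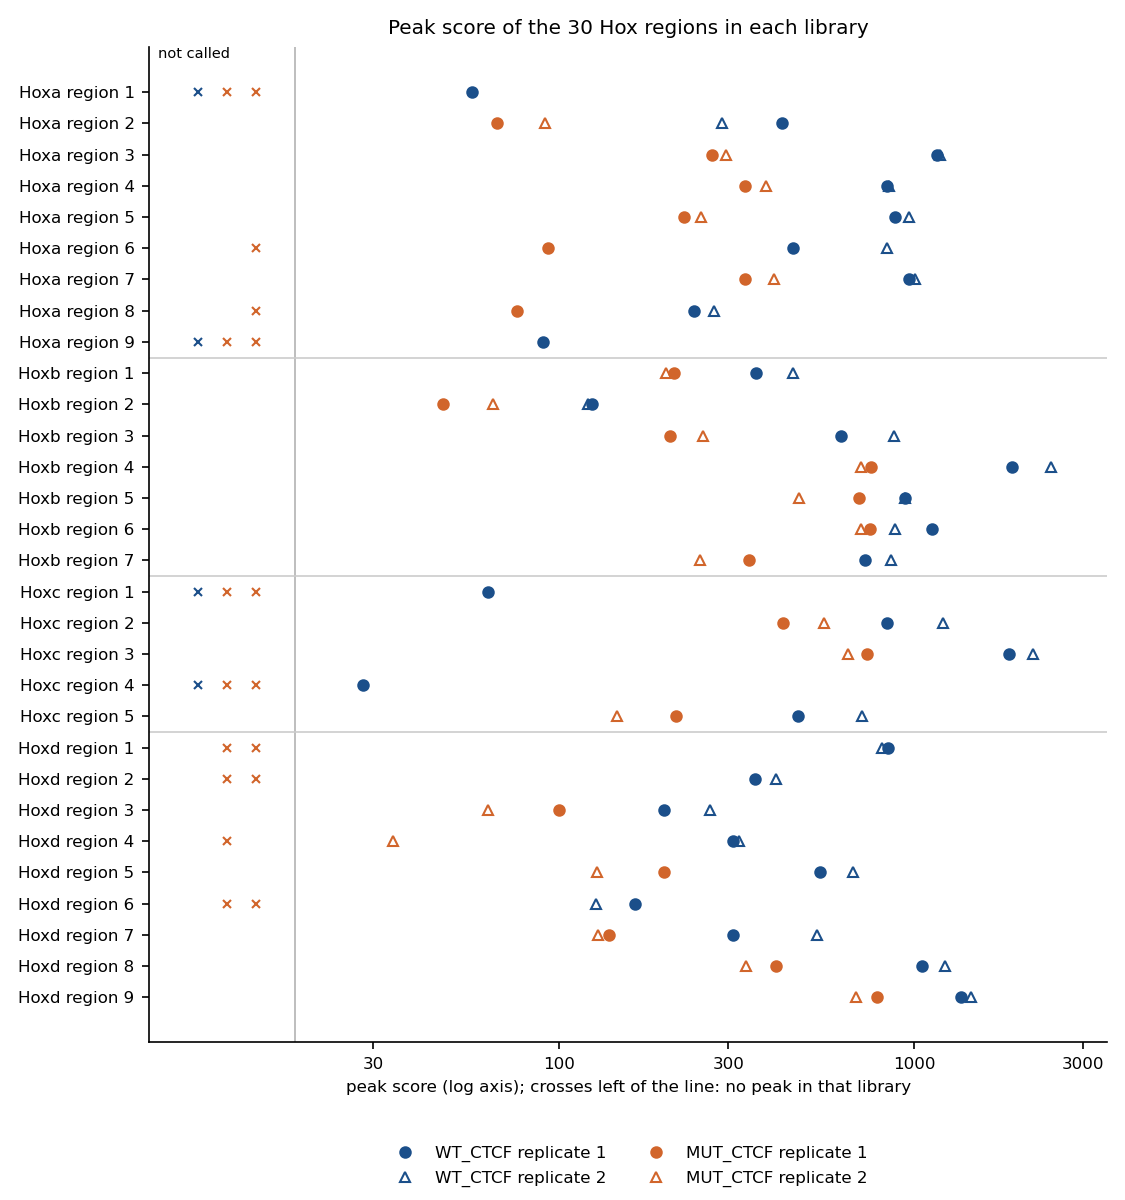
Peak score of each of the 30 Hox regions (rows) in each library, on a log axis. Filled circles are replicate 1 and open triangles replicate 2, blue for WT_CTCF and orange for MUT_CTCF, and crosses left of the line mark libraries with no peak. In all 20 regions with 4 values the orange points lie to the left of the blue ones, and the crosses in both MUT_CTCF columns with both WT_CTCF values present are in Hoxd regions 1, 2 and 6.

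In the Hoxa cluster the highest mean score over the 4 libraries was in region 3 (chr6:52206854-52207439), which lies in intergenic sequence 254 bp past the 3′ end of Hoxa13, a gene needed for the hand and foot plate and the urogenital tract. Its scores were 1163 and 1184 in WT_CTCF and 270 and 295 in MUT_CTCF. The replicates of each genotype were close together and the genotypes were far apart, with means of 1174 ± 14.8 (SD, n = 2) and 282.5 ± 17.7 and a log2 ratio of -2.05. A lower ratio was found in 6.04% of all regions called in all 4 libraries.

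Hoxa region 2 (chr6:52220385-52221093), 9511 bp upstream of Hoxa13, had the lowest ratio of the Hoxa cluster and of all 20 Hox regions. It scored 424 and 288 in WT_CTCF and 67 and 91 in MUT_CTCF, a log2 ratio of -2.17. Both genotypes were well separated, although the WT_CTCF replicates differed more here than in region 3. On the shared-region scale its ratio, -0.97, was again the lowest of the 20. On percentile ranks its ratio was -1.77, and that of Hoxb region 2 was lower, at -2.07. The highest ratio of the cluster was in region 4 (chr6:52190231-52190851), which touches coding and untranslated exon sequence at the start of Hoxa10, a gene of uterine and hindlimb patterning. It scored 838 and 851 in WT_CTCF and 335 and 384 in MUT_CTCF, a log2 ratio of -1.23. On the shared-region scale this ratio was -0.02, and by the median of all peaks it was -1.01. All 5 Hoxa regions called in every library lay below the median ratio of all regions, with a cluster median of -1.95.

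Among the Hoxa regions missing from some libraries, region 6 (chr6:52161423-52161937), 68 bp before Hoxa6, scored 457 and 839 in WT_CTCF and 93 in MUT_CTCF replicate 1, and had no peak in MUT_CTCF replicate 2. Region 8, between Hoxa5 and Hoxa4, scored 240 and 273 in WT_CTCF and 76 in MUT_CTCF replicate 1. Both of these were thus present in WT_CTCF and seen in a single MUT_CTCF library at a lower score. The outermost regions, 1 and 9, were called in WT_CTCF replicate 1 alone at scores of 57 and 90.

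In the Hoxb cluster the highest mean score was in region 4 (chr11:96139904-96140654), intergenic, 1995 bp past the end of Hoxb9. It scored 1889 and 2439 in WT_CTCF and 759 and 711 in MUT_CTCF, and its log2 ratio was -1.56. These were the highest WT_CTCF scores among the 30 regions, at percentiles 97.3 and 98.4 of their libraries' peaks, and the MUT_CTCF scores were still at percentiles 92.5 and 91.5. The lowest ratio of the cluster, -1.70, was in region 3 (chr11:96122825-96123392), 9379 bp before Hoxb9, which touches an exon of Gm53. It scored 622 and 878 in WT_CTCF and 206 and 255 in MUT_CTCF, so the genotypes did not overlap.

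The ratio nearest to 0 among all Hox regions was in Hoxb region 6 (chr11:96164309-96164863), which touches an exon and the untranslated sequence of Hoxb5. It scored 1125 and 886 in WT_CTCF and 750 and 710 in MUT_CTCF. The gap between the lower WT_CTCF and the higher MUT_CTCF score was small, and the log2 ratio of -0.46 was higher than in 94.4% of all regions called in all 4 libraries. On the shared-region scale this ratio was 0.74, in the other direction, and after division by the median of all peaks it was -0.23. Its neighbour, region 5, in an intron of Hoxb6, was similar, with scores of 942 and 943 in WT_CTCF and 698 and 474 in MUT_CTCF and a log2 ratio of -0.69, or 0.52 on the shared-region scale and -0.45 by the median of all peaks. The cluster median was -1.13, close to that of all regions.

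In the Hoxc cluster the highest mean score was in region 3 (chr15:102817592-102818455), 2062 bp past the end of Hoxc9 and within the annotated gene Gm20398. It scored 1853 and 2167 in WT_CTCF and 736 and 654 in MUT_CTCF, a log2 ratio of -1.53. By mean score this was the next region after Hoxb region 4, which also follows a group 9 gene. The lowest ratio, -1.72, was in region 5 (chr15:102843795-102844453) at the start of Hoxc5, with scores of 471 and 714 in WT_CTCF and 214 and 146 in MUT_CTCF. The highest, -1.06, was in region 2 (chr15:102796602-102797277) at the start of Hoxc10, with scores of 842 and 1210 in WT_CTCF and 428 and 559 in MUT_CTCF. In neither region did the genotypes overlap, but for region 2 the ratio on the shared-region scale was 0.17, beside -0.84 by the median of all peaks. Regions 1 and 4 were called in WT_CTCF replicate 1 alone, at 63 and 28.

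The Hoxd cluster held all of the regions called in both WT_CTCF and in neither MUT_CTCF library. Region 1 (chr2:74493387-74494127) touches coding and untranslated exon sequence of Evx2, the homeobox gene beside Hoxd13. It scored 847 and 813 in WT_CTCF, at percentiles 81.2 and 79.4 of those libraries' peaks, and had no peak in either MUT_CTCF library. The replicates of each genotype were thus alike, and the WT_CTCF peaks were not marginal ones. Its deposited mean scaled count over the 4 libraries was 522.75, at percentile 96.8 of all regions. Among the 11266 regions of the series with this pattern of calls, 4 had a higher deposited mean. The median deposited mean of all 11266 was 47.2. This deposited mean cannot be split by library here. The region had a G+C content of 73.5%, at percentile 99.8 of all regions, and 124.2 CpG per kb. Of the 200 regions of the series with a G+C content of at least 70%, 72.5% were called in both WT_CTCF and in neither MUT_CTCF library and 6.5% in all 4, and the part of base composition in the calls was not tested.

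Region 2 (chr2:74499763-74500356), between Evx2 and Hoxd13 and 6011 bp from the latter, scored 356 and 409 in WT_CTCF with no MUT_CTCF peak, at a G+C content of 51.9%. Region 6 (chr2:74529722-74530097), which touches an exon of Hoxd10, scored 164 and 127 in WT_CTCF with no MUT_CTCF peak, at a G+C content of 55.6%. Both regions scored below region 1, and region 2 was at percentiles 56.2 and 60.9 of the WT_CTCF libraries' peaks. Region 6, at percentiles 36.8 and 33.1, had the lowest WT_CTCF scores of the cluster. Region 4, between Hoxd13 and Hoxd12, scored 310 and 321 in WT_CTCF and 34 in MUT_CTCF replicate 2 only. Region 3, the other member upstream of Hoxd13, was called in every library, at 198 and 266 in WT_CTCF and 100 and 63 in MUT_CTCF. Regions 2 and 3 are separated by 1270 bp.

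Towards the 3′ end of Hoxd the calls were complete from region 7 on. Region 5 (chr2:74524166-74524877), which touches an exon of Hoxd11, had the lowest ratio of the cluster, with scores of 543 and 674 in WT_CTCF and 197 and 128 in MUT_CTCF and a log2 ratio of -1.90. Region 8 (chr2:74540127-74540760), between Hoxd9 and Hoxd8, the locus the study displays, scored 1055 and 1221 in WT_CTCF and 408 and 337 in MUT_CTCF. Its means were 1138 ± 117.4 (SD, n = 2) and 372.5 ± 50.2, a log2 ratio of -1.61. The study gives Hoxd8 and Hoxd9 as examples of up-regulated genes with enhanced CTCF peaks in MUT_CTCF. It measured peak change with spike-in normalized read counts, not with these scores. Region 9 (chr2:74553662-74554557), in an intron of Hoxd3 where it also touches an exon of the overlapping 1700109F18Rik, had both the highest mean score and the highest ratio of the cluster. It scored 1360 and 1452 in WT_CTCF and 785 and 688 in MUT_CTCF, a log2 ratio of -0.93. On the shared-region scale the ratio of region 8 was -0.40 and that of region 9 was 0.28, while by the median of all peaks they were -1.39 and -0.71.

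**Figure D3:**
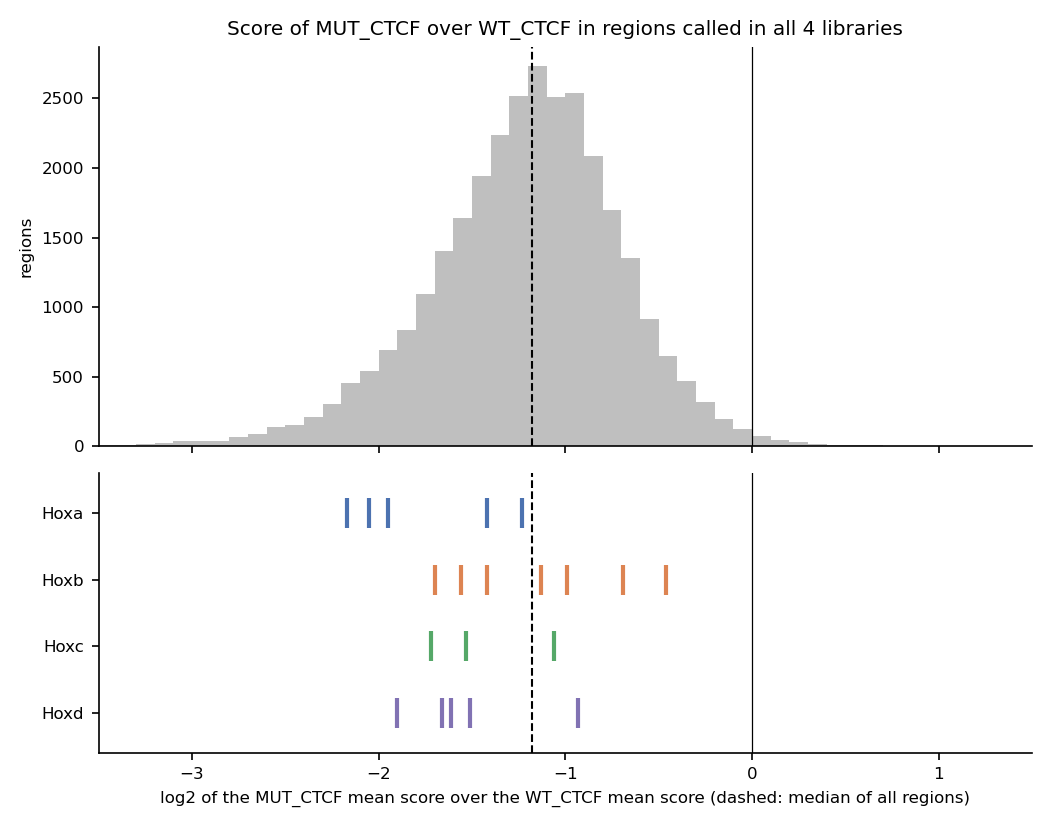
Log2 ratio of the MUT_CTCF to the WT_CTCF mean score. The upper panel counts regions of the series called in all 4 libraries in bins of 0.1, with 18 regions outside the drawn range, and the lower panel marks the 20 Hox regions by cluster, one tick each. The dashed line is the median of all regions, -1.18. All Hoxa ticks lie to its left, and the ticks nearest to 0 are Hoxb regions 6 and 5.

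Peak width and summit position were compared in the same 20 regions. Peaks were narrower in MUT_CTCF in 18 of the 20 without overlap between the genotypes, 90% beside 84.8% of all regions. The median of the WT_CTCF means was 573.2 bp and that of the MUT_CTCF means 386.8 bp, and the median difference was -184 bp beside -145 bp over all regions. The widest Hox peaks were in Hoxd region 9, with means of 837.5 bp in WT_CTCF and 661 bp in MUT_CTCF. The largest difference was in Hoxd region 5, with means of 635 and 269.5 bp, and the smallest in Hoxb region 7, with means of 569 and 521 bp. Genotype mean summits lay a median of 8.75 bp apart, beside 8.5 bp over all regions, while replicate summits lay a median of 4 bp apart in WT_CTCF and 10.5 bp apart in MUT_CTCF. The one shift above 25 bp was 30.5 bp, in Hoxb region 7, where the replicates differed by 9 and 0 bp.

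The motif was then examined, since the members had been chosen without regard to sequence. A match above 12.96 bits, the score that 5.0% of the control intervals beside regions reach, was found in 17 of the 30 Hox regions, 56.7% beside 77.8% of all regions. Above 18.43 bits, reached by 1.02% of the control intervals, there was a match in Hoxd region 1 alone, 3.33% beside 41.1% of all regions. The core CCANNAGNNGGC, searched on both strands with no mismatch, occurred in 6 Hox regions, 20% beside 47.3% of all regions and 3.31% of control intervals. The median best match was 14 bits in Hox regions and 17.5 bits in all regions. Yet the best match lay within 25 bp of the mean summit in 26 of the 30 Hox regions, 86.7% beside 78.9% of all regions. The Hox regions had more G+C, with a median of 51.6% beside 45.6%, and a median of 30.1 CpG per kb beside 11.

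The direction of the matches changed along the clusters. A split was made after the directions had been seen, at 1000 bp before the start of the first gene of group 10 or lower. On the 5′ side of it 8 of 12 regions had a match above 12.96 bits, and 7 of these 8 pointed against Hox transcription. The exception was Hoxd region 5, in Hoxd11. On the 3′ side 9 of 18 regions had such a match, and 8 of these 9 pointed along Hox transcription. The exception was Hoxb region 5, in Hoxb6. Counting the best match whatever its score, 11 of 12 pointed against transcription on the 5′ side and 14 of 18 along it on the 3′ side. In Hoxa, Hoxc and Hoxd the first and the last match above 12.96 bits thus pointed outward from the cluster, while in Hoxb the first pointed outward and the last, in region 5, inward. Hoxb regions 6 and 7, further 3′, had best matches along transcription of 12.7 bits, just under that score, and 8.4 bits. The first matches above 12.96 bits in Hoxa and in Hoxc lay in weak regions, called in WT_CTCF replicate 1 alone at scores of 57 and 63. Both were among the 7 that pointed against transcription on the 5′ side. In Hoxc that was the sole region on that side, and the next such match, in region 3, pointed along transcription. The directions were read from the reference sequence and are the same for both genotypes.

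**Figure D4:**
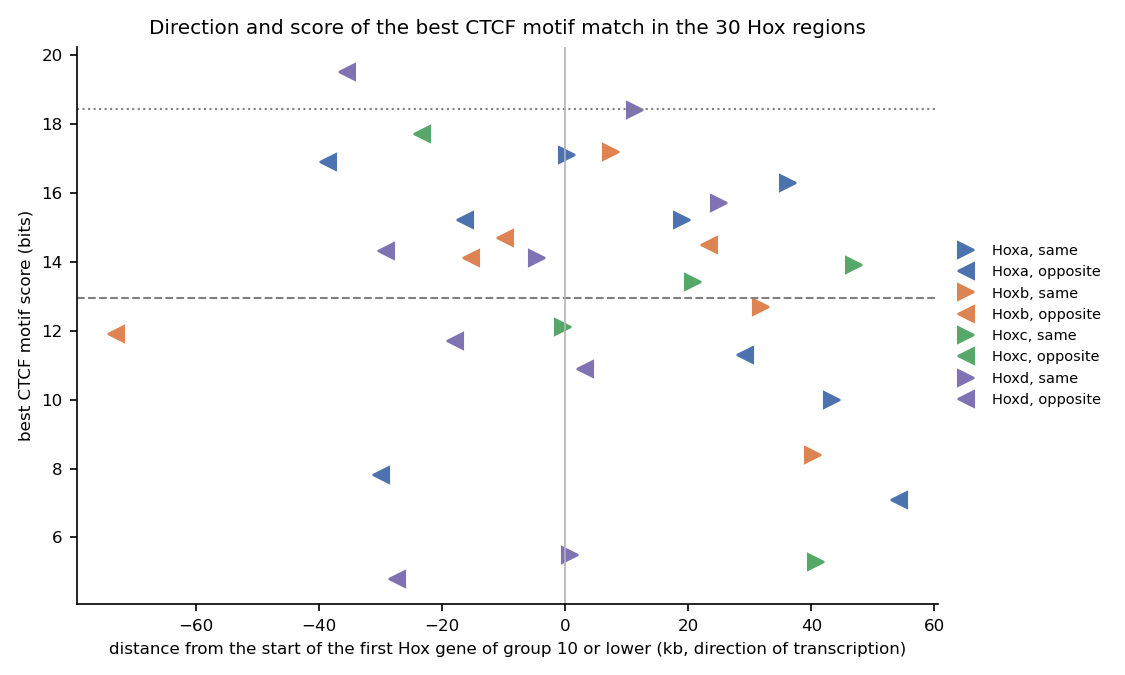
Score in bits of the best CTCF motif match in each of the 30 Hox regions, against its distance in kb from the start of the first Hox gene of group 10 or lower. Triangles point right for matches along Hox transcription and left for matches against it, colours are clusters, and the dashed and dotted lines are the scores reached by 5% and 1% of control intervals. Left-pointing symbols lie mostly left of 0 and right-pointing ones mostly right of it, with Hoxd region 5 and Hoxb region 5 as the exceptions above the dashed line.

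The regions after the group 9 genes lay at like places. They began 1995 bp past the end of Hoxb9, 2062 bp past that of Hoxc9 and 1862 bp past that of Hoxd9, while the Hoxa region began 902 bp past Hoxa9 and reached the start of Hoxa7, as this cluster has no group 8 gene. All 4 were called in every library, with matches of 15.2, 17.2, 13.4 and 18.4 bits in the order Hoxa, Hoxb, Hoxc, Hoxd, all along Hox transcription. Their scores were not alike, since the Hoxb and Hoxc regions had WT_CTCF means of 2164 and 2010 and the Hoxa and Hoxd regions 924.5 and 1138. Their log2 ratios were -1.95, -1.56, -1.53 and -1.61 in the same order.

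The group 5 regions were centred 38 bp before the start of Hoxa5, 677 bp after that of Hoxb5 and 122 bp before that of Hoxc5. Their matches had 16.3, 12.7 and 13.9 bits and pointed along transcription. Their log2 ratios differed more than those after group 9, at -1.42, -0.46 and -1.72. At group 10 the regions of Hoxa10 and Hoxc10 were centred 312 bp after and 288 bp before the gene start, with matches of 17.1 and 12.1 bits along transcription. The regions of Hoxd10 were centred 762 and 3168 bp after its start, with a match of 5.5 bits along and one of 10.9 bits against transcription.

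Related genes were described by the same distance rule, leaving out the Hox regions. Around 9 genes of the TALE class (Pbx, Meis and Pknox, homeodomain proteins that bind DNA together with Hox proteins) 43 regions were found. Of these 24 were called in all 4 libraries, at a median log2 ratio of -1.14, and 3 in both WT_CTCF and in neither MUT_CTCF library. Around 8 ParaHox and Evx genes, the homeobox genes most closely related to the Hox clusters, there were 18 regions. Of these 11 were called in all 4 at a median of -0.96, and 5 in both WT_CTCF and in neither MUT_CTCF library. Around 8 genes at the ends of the clusters there were 68 regions. Of these 37 were called in all 4 at a median of -1.20, and 13 in both WT_CTCF and in neither MUT_CTCF library. The share called in both WT_CTCF and in neither MUT_CTCF library was 6.98%, 27.8% and 19.1% in this order, beside 19.5% of all regions. The medians of these lists lay between -1.20 and -0.96 and that of the Hox regions was -1.52. Over regions called in all 4 libraries, the lists had median scores of 493, 486 and 597 in WT_CTCF replicate 1. In WT_CTCF replicate 2 these were 570.5, 554 and 672. Those of the Hox regions were higher, at 840 and 882. Matches above 12.96 bits were present in 72.1%, 66.7% and 79.4% of the regions of the lists in this order, beside 56.7% of the Hox regions.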

How the data were processed

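CTCF ChIP-seq peak lists of 4 mESC libraries, 2 WT_CTCF and 2 MUT_CTCF, were analysed, and groups and replicate numbers came from the sample titles. The authors trimmed reads with Trim Galore 0.4.4, aligned them to mm9 with Bowtie2 2.3.4.1, removed multiply aligned and duplicate reads and multiplied Drosophila spike-in factors into the coverage tracks. They called peaks per library with MACS2 2.1.1.20160309. The deposited peak lists give a position, a summit offset and a score, whose definition, cutoff and use of the input are not given in the sources used here. The lists held 49987 and 54001 peaks in WT_CTCF and 33939 and 32712 in MUT_CTCF. Read depth is unknown here, and intervals for counting error are left out.

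The authors' deposited table over the joined peaks holds a mean scaled signal over the 4 libraries, which was used, and the log2 fold change, its error, the test statistic and the p-values of a DESeq2 1.38.0 comparison, which were not used. No count model was fitted, since no count per library was at hand. The number of sample columns left unused was 0.

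A region was called in a library when a peak overlapped it by at least 1 bp, and the highest-scoring peak gave its score, width and summit (each of the 99 Hox calls was a single peak). Percentiles are ranks among a library's peaks or among all regions. The permutation test between libraries was exact and two-sided. A 20-base weight matrix was built from 22602 regions called in all 4 libraries on chromosomes without a Hox cluster, in 3 rounds, and scored on both strands of NCBIM37 (mm9). As controls served 109156 intervals of the regions' widths, each 5000 bp from its region. The scripts were tested on simulated peak lists and implanted motifs. The tools were pandas 2.3.3 and numpy 2.4.6 for tables, scipy 1.17.1 for the test and matplotlib 3.10.9 for figures, under Python 3.11.15.

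The members and lists were chosen with earlier results of these data known. Regions are named in full where, in their cluster, they had the highest mean score, the lowest or highest ratio among those called in all 4 libraries, or were called in both WT_CTCF and no MUT_CTCF library (up to 3), together with the region between Hoxd9 and Hoxd8; other regions named were chosen after their values were seen. Alternatives were other distances, overlaps, score minimums and score scales, the widest peak, other motif rules, a replicate block and leaving out each library. The replicate numbers were not found to pair the libraries.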

Additional observations from a re-analysis of the deposited data

How the results depend on the processing

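With a replicate block, pairing libraries of the same number, the difference in called Hox regions was again -6.5 (exact sign-flip test, p = 0.5, the smallest that 2 pairs allow) and the median log2 score ratio was -1.53. The labels give the numbers no meaning, and replicate deviations of the genotypes had a correlation of -0.003 across 30317 regions, so the libraries were not treated as paired. The score ratio depended on its scale, with a median of -0.40 on percentile ranks and -0.31 on scores divided by the library's median over regions called in all 4 libraries, where all regions had -0.36 and 0.04. Divided by the median of all peaks in the library, a scale chosen after seeing the data, the median was -1.30 beside -0.95 for all regions, and none of the 20 turned. On the first 2 scales the ratio of Hoxb region 6 turned to 0.11 and 0.74 and that of Hoxb region 5 to 0.02 and 0.52. On the second scale those of Hoxb regions 1 and 2 turned to 0.23 and 0.09. Those of Hoxc region 2 and Hoxd region 9 turned to 0.17 and 0.28 on it. The number of regions called in both WT_CTCF and no MUT_CTCF library, 3, became 1 within 5000 bp, 7 within 50000 bp, 9 with 50% reciprocal overlap, 9 with scores of at least 250, and 7 where 1 replicate sufficed. The difference in called regions was -4 and -12 within 5000 and 50000 bp, -12.5 with reciprocal overlap and -11 with scores of at least 250. With that minimum, 11 regions were called in all 4 libraries. The cause of these changes was not tested. The motif count of 17 became 1 at the stricter score and 6 with the fixed core. Without single libraries, the number of regions called in every remaining WT_CTCF and in no remaining MUT_CTCF library ranged from 3 to 7. The median width difference ranged from -225 to -162.2 bp and the median log2 ratio from -1.67 to -1.33. The difference in called regions ranged from -8.5 to -4.5. Regions called in all remaining libraries ranged from 20 to 22. No region was called in both MUT_CTCF and no WT_CTCF library under any alternative run. With 2 libraries per genotype no p under 0.333 can be reached, and the missing definition of the score limits what its ratios measure.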
